A study of Mus musculus with 9 samples.

Results

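The 39 genes described here cover amino acid metabolism and the response driven by the transcription factor ATF4. They were chosen by gene symbol as a fixed list of regulators, biosynthetic enzymes, transporters and ATF4-linked targets. Every one of the 39 was found among the 55487 genes of the count table. The cells were MCEC, a murine line labelled as cardiac endothelial, in 3 groups of 3 RNA-seq libraries each. One group was wild type (WT), the next carried a knockdown of Zbtb46 (KD) and the last an overexpression of it (OE). Zbtb46 encodes a zinc finger transcription factor. The labels name no other allele or agent, give neither the means of knockdown nor that of overexpression, nor whether either line was 1 clone or whether replicates were separate cultures, and no control-vector library was analysed here. P-values therefore measure the spread between these libraries, which may be technical.

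ATF4 is a transcription factor whose mRNA is translated preferentially when the initiation factor eIF2 is phosphorylated, which happens when amino acids are short, unfolded proteins gather in the endoplasmic reticulum, or haem or redox balance fails. With partners of the C/EBP family it binds composite elements in genes for amino acid synthesis, amino acid uptake and tRNA charging, and in genes for feedback and stress regulators such as Trib3, Ddit3 and Chac1. In endothelial cells, serine, glycine, asparagine and glutamine metabolism is known to support growth and vessel sprouting. Since ATF4 is controlled largely at translation, its mRNA level is only one part of its activity.

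Total counts per library ran from 39491828 to 55745849, and the share taken by ribosomal RNA genes was 11.6% ± 5.12 for WT, 11.1% ± 1.36 for KD and 16.1% ± 1.92 for OE (mean ± SD, 3 libraries a group). Zbtb46 itself stood at 13.6 ± 0.622 CPM, the unit in which counts are scaled to a common library total, in WT, 11.2 ± 0.536 in KD and 191 ± 2.67 in OE. It fell by 0.28 on the log2 scale in KD (adjusted p = 0.00144) and rose by 3.81 in OE (adjusted p = 3.24e-21), so the knockdown was a small change at the RNA level and the overexpression a large one. The endothelial label was not matched by all of 13 endothelial markers, of which 6 were tested. Pecam1, Cdh5, Erg, Cldn5, Emcn, Tie1 and Vwf were at or near 0 in all groups. The summed level of the 13 ran from 147 to 160 CPM in WT, 124 to 131 in KD and 107 to 118 in OE, mostly from Eng. Fibroblast and mural markers, of which 6 of 10 were tested, summed to 5116 to 5686 CPM in WT, 4851 to 4915 in KD and 4040 to 4133 in OE, mostly from Col1a1. All 6 tested fell in OE against WT, with a median log2 fold change of -1.42, and 2 of the 6 fell in KD (median -0.25). Of the 6 endothelial markers tested, 4 fell and 1 rose in OE (median -0.56), and 4 fell in KD (median -0.44). Of all genes tested, 19.5% fell and 16.9% rose in OE against WT, and 10.4% fell and 11% rose in KD. Leukocyte markers summed to between 3.40 and 5.82 CPM and cardiomyocyte markers to between 0.655 and 1.62 CPM over all libraries. The part of any of these shifts in the results below was not tested.

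The element that ATF4 binds with a C/EBP partner is written here as TGATGNAA, or TTNCATCA on the other strand, and it was searched on both strands in RefSeq promoter windows of GRCm38.p6, from 250 bases before to 50 bases after each start site. Of the 39 genes, 34 had a window and 7 of these (20.6%) held a match, against 1219 of 27025 genes (4.51%) in the whole table. Counted by window, 7 of 42 (16.7%) held it, against 1304 of 32851 (3.97%). The list was chosen partly for ATF4-linked targets, so these shares only describe it. The matched genes were Trib3, Vldlr, Asns, Chac1, Pycr1, Got1 and Slc1a4. Printed here are 4 of them, since their RNA differed most clearly between OE and KD: Trib3 (chr2:152344031-152344310, minus strand), Vldlr (chr19:27216770-27217049, plus strand), Asns (chr6:7693180-7693459, minus strand) and Chac1 (chr2:119350992-119351271, plus strand). Each run goes from 250 bases before to 30 bases after the start on the gene's own strand, 5′ to 3′, with the matched bases in capitals.
Trib3: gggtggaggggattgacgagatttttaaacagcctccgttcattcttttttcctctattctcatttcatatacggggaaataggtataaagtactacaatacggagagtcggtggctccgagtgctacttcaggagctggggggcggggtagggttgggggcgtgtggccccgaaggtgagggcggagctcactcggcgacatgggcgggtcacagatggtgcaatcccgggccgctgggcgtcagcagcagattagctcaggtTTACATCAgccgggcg
Vldlr: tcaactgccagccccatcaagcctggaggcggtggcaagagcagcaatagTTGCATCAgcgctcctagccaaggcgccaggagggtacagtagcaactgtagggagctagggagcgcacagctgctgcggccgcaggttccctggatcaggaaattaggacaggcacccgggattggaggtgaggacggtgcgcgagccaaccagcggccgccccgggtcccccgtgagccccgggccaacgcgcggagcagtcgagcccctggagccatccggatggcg
Asns: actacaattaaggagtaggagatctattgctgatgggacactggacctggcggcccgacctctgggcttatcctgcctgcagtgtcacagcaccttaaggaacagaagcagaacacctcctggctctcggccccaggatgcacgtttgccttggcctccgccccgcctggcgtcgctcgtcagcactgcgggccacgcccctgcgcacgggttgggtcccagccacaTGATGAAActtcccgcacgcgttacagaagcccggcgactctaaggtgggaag
Chac1: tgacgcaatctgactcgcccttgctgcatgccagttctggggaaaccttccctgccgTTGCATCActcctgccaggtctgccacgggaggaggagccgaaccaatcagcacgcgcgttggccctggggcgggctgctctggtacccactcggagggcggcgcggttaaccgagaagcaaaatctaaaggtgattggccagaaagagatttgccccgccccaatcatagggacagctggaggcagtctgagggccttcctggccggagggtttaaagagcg

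In Asns the match read TGATGAAA on the gene's strand and began 23 bases before the start. In Trib3, Vldlr and Chac1 it lay on the other strand. It began at base 15 of the transcript in Trib3, counting the start as 1, 200 bases before it in Vldlr and 193 bases before it in Chac1. A match describes letters in a window and not binding. Cth, Slc38a1, Slc1a5, Slc7a5 and Slc7a3 had no window.

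Compared per kilobase of exon, the levels in WT cells spanned a wide range. Atf4 (157 ± 7.78 CPM per kb) and Phgdh (156 ± 4.02), the first enzyme of serine synthesis from glucose, headed the order and did not differ beyond their spread. Below them came the mitochondrial serine hydroxymethyltransferase Shmt2 (95.4 ± 6.35), then the serine enzyme Psat1 (80.0 ± 0.461) and the leucine transporter Slc7a5 (79.3 ± 3.84), whose levels per kb were again within their spread of each other. Aldh18a1 followed at 70.3 ± 2.11 CPM per kb, and Asns (61.6 ± 2.78) and Slc3a2 (60.4 ± 1.30) came next, within their spread. Another 7 genes lay below 1 CPM per kb in WT: Glul, Vldlr, Stc2, Cth, Gfpt2, Slc7a3 and Cbs. Together the 39 genes made up 0.498% ± 0.0327 of a WT library, 0.550% ± 0.00596 of a KD library and 0.583% ± 0.0108 of an OE library.

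**Figure D1:**
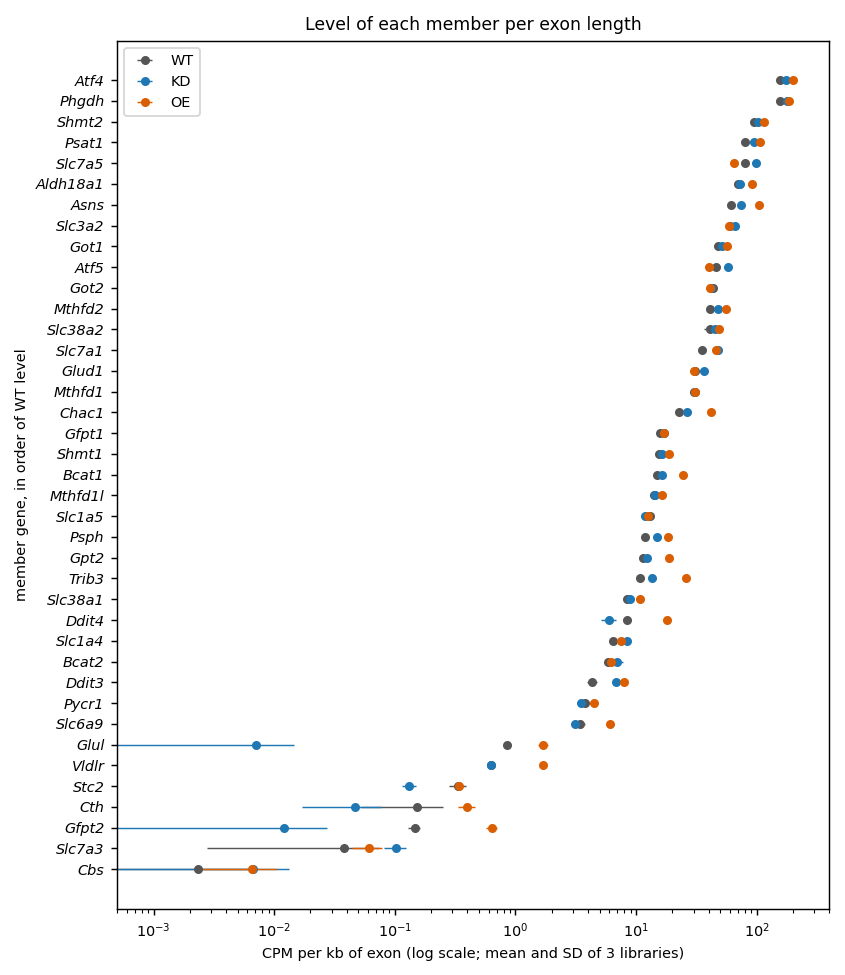
Level of each of the 39 genes in CPM per kilobase of exon on a log axis, ordered by the WT mean; points are group means of 3 libraries and bars the SD. Atf4 and Phgdh head the order at 157 and 156 in WT, and Gfpt2, Slc7a3 and Cbs close it.

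Most of these genes carried more RNA in OE than in WT cells, and a smaller number carried more in KD than in WT. All changes below come from edgeR's quasi-likelihood test on counts over the 9 libraries, with p-values adjusted by Benjamini-Hochberg over 16955 genes and a threshold of 0.05; the SE of each log2 fold change comes from the spread of log2 CPM. In OE against WT, 27 genes rose and 2 fell among the 38 tested. Over all genes tested, 36.4% were called (16.9% higher, 19.5% lower). In KD against WT, 18 rose and 4 fell, with 21.4% of all genes called (11% higher, 10.4% lower). In OE against KD, 23 were higher and 4 lower in OE, with 41.5% of all genes called (19.4% higher, 22.1% lower). The median log2 fold change of the 38 was 0.35 in OE against WT, 0.12 in KD against WT and 0.20 in OE against KD, while the medians over all genes were 0.0020, -0.0022 and 0.011. Cbs did not pass the filter on low counts, and Glul, Gfpt2, Cth and Slc7a3 passed it through the groups where they are higher, so these counts and medians only describe the 38. In bulk RNA, fewer cells of a kind and less RNA per cell cannot be told apart.

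Many of the 39 are highly expressed, and highly expressed genes are called more often. Among the 4221 genes that averaged 50 CPM or more, a level chosen after the values were seen, 28.4% rose and 28.6% fell in OE against WT, and 16 of the 24 genes of the list at that level rose and 2 fell. In KD against WT, 24.1% of the 4221 rose and 12.2% fell, while 13 of the 24 rose and 0 fell. In OE against KD, 26.6% of the 4221 were higher and 35% lower, while 13 of the 24 were higher and 4 lower. Changes of at least 0.5 on the log2 scale were fewer: 13 genes rose by that much in OE (13.4% of all genes moved so far in either direction), while 1 rose and 3 fell in KD (5.69%). In OE against KD, 11 were higher and 2 lower by that much (18.6%). The 3 libraries of OE lay apart from the 3 of WT for 31 of the 38 genes, 28 above and 3 below, against 45.1% of all genes (21.7% above, 23.5% below). In KD against WT it was 28 genes, 22 above and 6 below, against 34.7% (17.6% above, 17% below). In OE against KD it was 31 genes, 26 above and 5 below, against 55.4% (27.2% above, 28.2% below). KD and OE were both compared with the same 3 WT libraries.

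**Figure D2:**
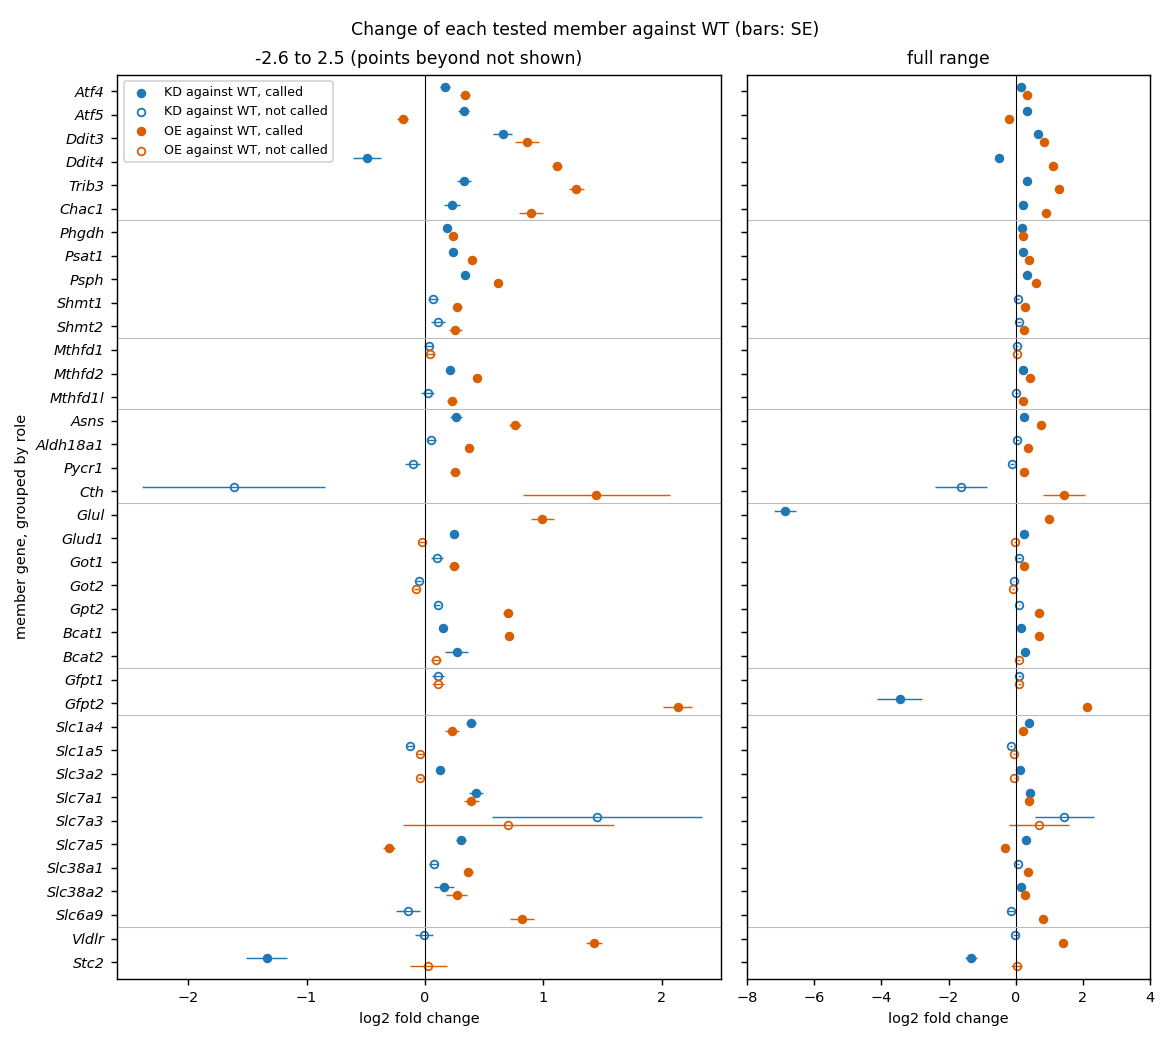
Log2 fold change of the 38 tested genes in KD against WT and in OE against WT, with bars of 1 SE, on a narrower scale at the left and over the full range at the right; filled points passed the adjusted threshold of 0.05. The OE points lie mostly to the right of 0, led by Gfpt2 at 2.13, while Glul and Gfpt2 lie farthest to the left in KD. Both passed the low-count filter through the groups where they are higher.

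All 6 stress regulators passed the test in both comparisons with WT. In OE, 5 rose and 1 fell, with a median log2 fold change of 0.88, and in KD, 5 rose and 1 fell, with a median of 0.28. Of all genes 36.4% were called in OE (16.9% higher, 19.5% lower) and 21.4% in KD (11% higher, 10.4% lower). Atf4, on chromosome 15 from 80255184 to 80257541 (GRCm38), read 381, 349 and 381 CPM in the WT libraries, 410.0, 415 and 422 in KD, and 460.3, 472 and 470.1 in OE. The 3 groups did not overlap, and OE stood highest. Its RNA rose by 0.17 on the log2 scale in KD (SE 0.043, adjusted p = 0.005) and by 0.34 in OE (SE 0.043, adjusted p = 1.15e-06). OE exceeded KD by 0.17 (SE 0.016, adjusted p = 0.0019).

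Trib3, a pseudokinase that dampens ATF4 activity and is one of its targets, lies on chromosome 2 from 152337422 to 152344032. It read 24.4, 23.0 and 21.1 CPM in WT, 28.7, 28.1 and 29.2 in KD, and 53.5, 55.7 and 56.9 in OE. Every OE library lay above every KD library, and those lay above WT. The increase was 1.28 on the log2 scale in OE, or 2.43-fold (SE 0.066, adjusted p = 9.72e-13), and 0.33 in KD (SE 0.063, adjusted p = 0.000546). OE stood above KD by 0.95 (SE 0.030, adjusted p = 4.85e-11). This is one of the genes whose promoter letters are printed above.

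Chac1 encodes an enzyme that breaks down glutathione and is a target of ATF4. Its levels were 38.2, 33.7 and 39.5 CPM in WT, 42.8, 43.8 and 43.4 in KD, and 71.6, 72.5 and 62.6 in OE, so the OE libraries stood clear of both other groups. In OE it rose by 0.90 on the log2 scale (SE 0.097, adjusted p = 7.46e-10). The rise of 0.23 in KD (SE 0.070, adjusted p = 0.0169) was not called when certain single libraries were left out. The adjusted p was 0.0631 without WT replicate 2 (log2 fold change 0.16), 0.0685 without KD replicate 2 (0.22) and 0.0599 without KD replicate 3 (0.23). It was 0.114 with library totals alone as the scale and 0.0617 with totals without ribosomal RNA.

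Ddit3, known as CHOP, is a C/EBP-family factor of prolonged stress. It read 7.67, 8.01 and 6.66 CPM in WT, 11.7, 11.6 and 11.9 in KD, and 14.3, 13.9 and 12.4 in OE. Both altered groups lay above WT without overlap. Ddit3 rose by 0.66 in KD (SE 0.080, adjusted p = 4.27e-05) and by 0.86 in OE (SE 0.100, adjusted p = 3.77e-07), while OE and KD did not pass the test against each other (adjusted p = 0.0888, and 0.0497 without OE replicate 3). Its exons share 68 bases with Mars1 on the opposite strand, and use of strand in counting is not given in the sources used here; Mars1 rose by 0.17 in OE (adjusted p = 0.00396).

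Ddit4, an inhibitor of the growth kinase mTORC1, was lower in KD and higher in OE. Its levels were 15.0, 14.2 and 15.1 CPM in WT, 9.29, 10.1 and 12.1 in KD, and 31.4, 33.1 and 31.1 in OE. The KD libraries lay below all WT libraries and the OE libraries above them. Ddit4 fell by 0.49 on the log2 scale in KD (SE 0.115, adjusted p = 0.000328) and rose by 1.11 in OE (SE 0.040, adjusted p = 1.06e-09). OE exceeded KD by 1.60, or 3.04-fold (SE 0.115, adjusted p = 2.95e-12).

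Atf5, a related factor that is also translated preferentially under stress, was higher in KD and lower in OE. It read 94.7, 86.5 and 93.9 CPM in WT, 112, 116 and 117 in KD, and 79.8, 82.7 and 78.9 in OE. KD was highest and OE lowest, with no overlap. Atf5 rose by 0.33 in KD (SE 0.045, adjusted p = 2.61e-05) and fell by 0.19 in OE (SE 0.046, adjusted p = 0.00294), and OE against KD gave -0.52 (SE 0.026, adjusted p = 1e-08). An exonic stretch of 82 bases is shared with Nup62 on the opposite strand.

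**Figure D3:**
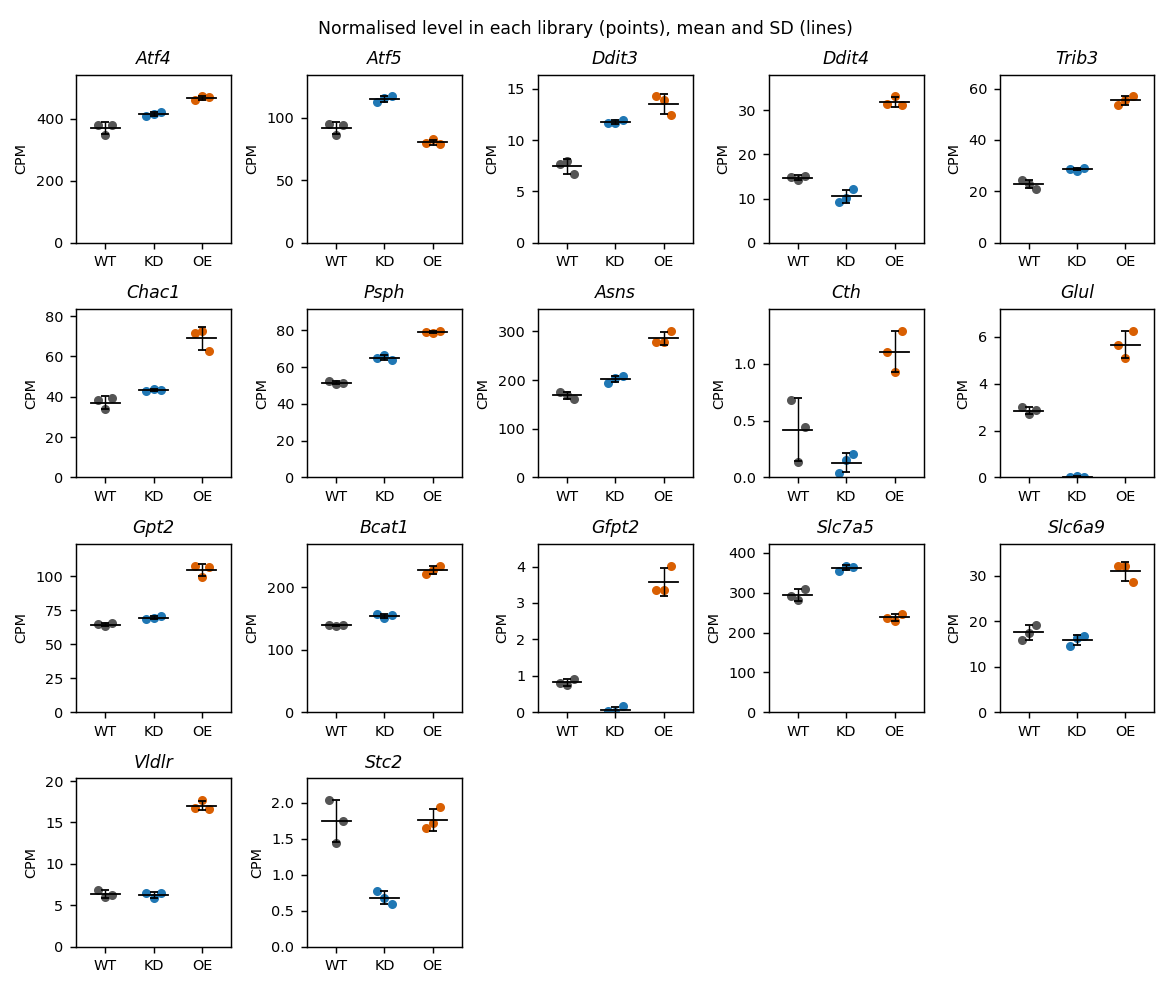
Level in CPM of 17 genes in each of the 9 libraries; points are libraries, horizontal lines the means and bars the SD of 3 libraries, on linear axes that differ between panels. Trib3, Ddit4, Asns, Gpt2, Bcat1, Slc6a9 and Vldlr are highest in OE, Atf5 and Slc7a5 are highest in KD, and Glul and Gfpt2 are near 0 in KD.

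Serine and glycine synthesis rose as a whole in OE. All 5 enzymes passed the test upward there (median 0.27), beside 28.4% of all genes at 50 CPM or more, and 3 of 5 did in KD (median 0.18), beside 24.1%. Psph, the phosphatase of the last step of serine synthesis, changed most: it read 52.6, 50.8 and 51.3 CPM in WT, 65.1, 66.4 and 63.7 in KD, and 79.2, 78.6 and 79.5 in OE. The groups formed 3 steps without overlap. Psph rose by 0.34 in KD (SE 0.023, adjusted p = 1.75e-05) and by 0.62 in OE (SE 0.015, adjusted p = 9.05e-10), and OE exceeded KD by 0.28 (SE 0.018, adjusted p = 2.97e-05).

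A limit on Psph is its overlap, over 452 of 4329 exonic bases, with the chaperonin gene Cct6a on the opposite strand. Cct6a had 182456 counts over the 9 libraries and Psph 27543. Cct6a rose by 0.15 in KD (adjusted p = 0.0230) and by 0.28 in OE (adjusted p = 5.32e-05), less than Psph in each comparison; its part in the Psph counts was not tested.

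Phgdh and Psat1, which catalyse the steps before Psph, rose by less. Phgdh was at 389 ± 9.99 CPM in WT, 442 ± 7.32 in KD and 457 ± 9.91 in OE, with changes of 0.18 (adjusted p = 0.00128) and 0.23 (adjusted p = 5.31e-05). Psat1 was at 340.3 ± 1.96 CPM in WT, 400.4 ± 5.65 in KD and 449 ± 13.1 in OE, with changes of 0.23 (adjusted p = 0.000108) and 0.40 (adjusted p = 3.46e-08). Unlike Phgdh, whose OE and KD levels did not pass the test against each other (adjusted p = 0.343), Psat1 was also higher in OE than in KD (0.16, adjusted p = 0.00123).

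The serine hydroxymethyltransferases, which convert serine to glycine and charge folate with a carbon unit, rose in OE. Shmt2 rose by 0.26 there (adjusted p = 9.51e-05; means 296 CPM in WT, 319.7 in KD and 354 in OE) and Shmt1, the cytosolic form, by 0.27 (adjusted p = 0.000142; means 60.7, 63.7 and 73.3 CPM). In KD against WT neither passed (adjusted p = 0.0877 for Shmt2 and 0.369 for Shmt1), although Shmt2 passed without WT replicate 3 (adjusted p = 0.000918). Both were higher in OE than in KD, by 0.15 for Shmt2 (adjusted p = 0.0105) and 0.20 for Shmt1 (adjusted p = 0.00186). For Shmt2, that difference did not hold without KD replicate 1 (adjusted p = 0.072) or without OE replicate 2 (adjusted p = 0.0508).

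Of the folate enzymes that carry this carbon onward, the mitochondrial ones moved and the cytosolic one did not pass. Mthfd2, at 144 ± 2.69 CPM in WT, 166 ± 0.497 in KD and 195 ± 3.80 in OE, rose by 0.21 in KD (adjusted p = 0.000498) and by 0.44 in OE (adjusted p = 1.46e-08). Mthfd1l rose by 0.23 in OE (adjusted p = 0.00134), from 62.5 ± 3.04 CPM to 73.2 ± 1.56. Mthfd1, the cytosolic enzyme, had means of 133, 136 and 137 CPM in WT, KD and OE and passed no comparison (adjusted p between 0.497 and 0.873).

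For asparagine, proline and cysteine synthesis, Asns, Aldh18a1 and Pycr1 rose in OE against WT and stood above KD. Cth did so too, but it reached the test through its OE counts and is only described. In KD, Asns rose against WT. Asns, asparagine synthetase, lies on chromosome 6 from 7675169 to 7693254 and is a standard reporter of ATF4. It read 176, 169.6 and 161 CPM in WT, 194, 204 and 208 in KD, and 277, 278 and 300.4 in OE. No group overlapped another. Asns rose by 0.26 in KD (SE 0.047, adjusted p = 0.000269) and by 0.76 in OE, or 1.69-fold (SE 0.053, adjusted p = 4.08e-11), and OE exceeded KD by 0.50 (SE 0.047, adjusted p = 1.5e-08).

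The proline enzymes followed in OE. Aldh18a1, which starts proline synthesis from glutamate, rose from 286 ± 8.60 to 370.0 ± 5.39 CPM (0.37, adjusted p = 2.35e-07), with 297 ± 9.97 in KD. Pycr1, which completes it, rose from 14.8 ± 0.652 to 17.6 ± 0.446 CPM (0.25, adjusted p = 0.0144), a call lost without WT replicate 2 (adjusted p = 0.0511), with 13.7 ± 0.861 in KD. Neither passed in KD against WT (adjusted p = 0.4 for Aldh18a1 and 0.398 for Pycr1). Both were higher in OE than in KD, by 0.32 for Aldh18a1 (adjusted p = 1.28e-06) and by 0.36 for Pycr1 (adjusted p = 0.000832).

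The cysteine-forming enzymes of transsulfuration were barely expressed. Cth was counted 26, 8 and 20 times in WT, 2, 6 and 10 in KD, and 52, 46 and 58 in OE, equal to 0.685, 0.134 and 0.447 CPM, 0.0397, 0.151 and 0.205 CPM, and 1.11, 0.928 and 1.29 CPM. OE lay above both other groups, and KD and WT overlapped. Cth was 1.45 higher on the log2 scale in OE than in WT (SE 0.622). It passed the low-count filter through its OE counts, so its call there gives no support. That call was also lost without WT replicate 2, OE replicate 1 or OE replicate 3. In KD against WT Cth did not pass (adjusted p = 0.0587), and it did without WT replicate 2 (adjusted p = 0.00448). OE exceeded KD by 3.06 (SE 0.499), with pooled counts of 156 and 18. Cbs, the enzyme before Cth, was counted 2, 0 and 0 times in WT, 5, 2 and 0 in KD, and 1, 4 and 2 in OE, and was not tested.

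The glutamate and glutamine group was mixed: 4 of 7 rose in OE (median 0.24), and 3 rose and 1 fell in KD (median 0.11). Among all genes at 50 CPM or more, 28.4% rose in OE and 57% were called there in either direction. In KD 36.3% of those genes were called, 24.1% higher and 12.2% lower. Glul and Bcat2 lie below that level. Glul, glutamine synthetase, on chromosome 1 from 153899944 to 153909723, was the gene that fell. It was counted 114, 160 and 128 times in WT, 1, 2 and 0 in KD, and 265, 253 and 281 in OE, which is 3.0, 2.69 and 2.86 CPM, 0.0199, 0.0502 and 0 CPM, and 5.65, 5.11 and 6.24 CPM. KD libraries held almost none of this RNA and OE libraries held more than any WT library. WT exceeded KD 131-fold (95% interval of counting error 44.5 to 638, from 402 against 3 counts), and OE exceeded KD 262-fold (89.2 to 1272). Glul passed the low-count filter through the groups where it is higher, so its KD comparisons are only described. In OE against WT Glul rose by 0.99 (SE 0.095, adjusted p = 8.83e-05).

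Of the aminotransferases, which move nitrogen onto glutamate or off it, Gpt2, Bcat1 and Got1 rose in OE. Gpt2, the mitochondrial alanine aminotransferase, read 64.9, 63.1 and 65.7 CPM in WT, 68.7, 69.5 and 70.8 in KD, and 108, 99.7 and 107 in OE. OE stood apart, at 0.70 above WT (SE 0.040, adjusted p = 1.73e-10) and 0.59 above KD (SE 0.038, adjusted p = 1.25e-09), while KD against WT did not pass (adjusted p = 0.107). Bcat1, the cytosolic branched-chain aminotransferase, read 139, 138 and 139.6 CPM in WT, 157, 150.3 and 156 in KD, and 220.1, 227 and 234 in OE. Its 3 groups did not overlap, and OE was highest. Bcat1 rose by 0.71 in OE (SE 0.026, adjusted p = 1.47e-11) and by 0.15 in KD (SE 0.019, adjusted p = 0.0094), the latter just lost without KD replicate 3 (adjusted p = 0.0504).

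The remaining genes of this role changed less. Got1, the cytosolic aspartate aminotransferase, rose by 0.24 in OE (adjusted p = 0.000199), from 122 to 145 CPM, with 131 in KD, where it passed only without WT replicate 2 (adjusted p = 0.0453). Got2, its mitochondrial counterpart, had means of 208, 201 and 198 CPM and passed no comparison (adjusted p between 0.154 and 0.746). Glud1, glutamate dehydrogenase, and Bcat2, the mitochondrial branched-chain enzyme, rose in KD and did not pass in OE against WT. Glud1 rose by 0.25 in KD (adjusted p = 0.000119; means 129, 153 and 127 CPM in WT, KD and OE). Bcat2 rose by 0.27 in KD (adjusted p = 0.0134; means 22.6, 27.2 and 24.2 CPM), a call lost without KD replicate 3 (adjusted p = 0.136). Glud1 was lower in OE than in KD (-0.27, adjusted p = 1.03e-05).

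The hexosamine pathway uses glutamine to make amino sugars for glycosylation, through Gfpt1 or Gfpt2. Gfpt2, on chromosome 11 from 49794178 to 49838613, was counted 30, 44 and 41 times in WT, 2, 0 and 8 in KD, and 158, 166 and 181 in OE, or 0.791, 0.739 and 0.917 CPM, 0.0397, 0 and 0.164 CPM, and 3.37, 3.35 and 4.02 CPM. The groups lay far apart, with KD lowest and OE highest, as for Glul. Gfpt2 fell by 3.46 on the log2 scale in KD (SE 0.666). Its pooled counts of 115 and 10 put WT 11.2-fold above KD (5.90 to 24.1). In OE against WT Gfpt2 rose by 2.13, or 4.39-fold (SE 0.122, adjusted p = 3.79e-06), and OE exceeded KD by 5.59 (SE 0.666). Gfpt2 too passed the low-count filter through the groups where it is higher, so its KD comparisons are only described. Gfpt1, the form with the higher level per kb in these cells, had means of 159.9, 173 and 173 CPM and passed no comparison (adjusted p = 0.0734 in KD and 0.0558 in OE against WT). It passed in both without WT replicate 2 (adjusted p = 0.0123 and 0.0149) or without WT replicate 3 (0.032 and 0.0312), and in OE under DESeq2 (0.0448).

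Among the amino acid transporters, in OE 5 of 9 rose and 1 fell (median 0.27), and in KD 5 rose and 0 fell (median 0.16). Of all genes 36.4% were called in OE and 21.4% in KD. Between OE and KD 2 of the 9 were higher and 2 lower in OE (median -0.040), close to the 41.5% of all genes called there. Slc7a5, which carries leucine and other large neutral amino acids as a pair with Slc3a2, read 291, 282 and 309.5 CPM in WT, 355, 368 and 364 in KD, and 237, 229.9 and 247 in OE. KD was highest and OE lowest, without overlap. Slc7a5 rose by 0.30 in KD (SE 0.043, adjusted p = 2.96e-05), fell by 0.31 in OE (SE 0.050, adjusted p = 8.76e-06) and was lower in OE than in KD (-0.61, SE 0.033, adjusted p = 2.8e-10), before the window correction given next.

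Slc7a5 lies on chromosome 8 from 121881150 to 121907694, in a stretch of the genome whose genes had a shifted median in OE. The median log2 fold change of the genes in its 20 Mb window was -0.44 in OE against WT, and with that median removed the change of Slc7a5 was 0.14. In OE against KD the window median was -0.47, which left -0.14. Its partner Slc3a2, on another chromosome, had means of 213, 233 and 207 CPM in WT, KD and OE. Slc3a2 rose by 0.13 in KD (adjusted p = 0.0208), a call lost without KD replicate 2 (adjusted p = 0.128) and without KD replicate 3 (0.0665), did not pass in OE against WT (adjusted p = 0.449) and was lower in OE than in KD (-0.17, adjusted p = 0.00119).

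Slc6a9, a glycine transporter, read 15.9, 17.5 and 19.3 CPM in WT, 14.6, 16.3 and 16.8 in KD, and 32.2, 32.2 and 28.6 in OE. OE lay above both other groups, which overlapped. Slc6a9 rose by 0.82 in OE (SE 0.099, adjusted p = 6.76e-08) and did not pass in KD (adjusted p = 0.248). It too sits in a window with a shifted median, on chromosome 4. That median was 0.36 in OE against WT, and 0.46 was left for Slc6a9 with it removed. Slc7a5 and Slc6a9 were the 2 genes of the list in a window whose median went beyond 0.2 in OE against WT. Removing the smaller medians of other windows brought the rise of Asns in KD to 0.17, and the excess of OE over KD to 0.06 for Atf4, 0.05 for Shmt2, 0.13 for Shmt1 and 0.19 for Slc38a1. Other changes grew, among them the KD rises of Phgdh to 0.23, Psat1 to 0.30, Psph to 0.38 and Slc3a2 to 0.19. The OE rise of Pycr1 against WT grew to 0.35. The median over the list went from 0.12 to 0.15 in KD against WT and from 0.20 to 0.13 in OE against KD.

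Slc7a1, the main carrier of arginine and lysine, rose in both altered groups: its means were 406 ± 26.8 CPM in WT, 548 ± 1.74 in KD and 533 ± 17.3 in OE, a rise of 0.43 (SE 0.056, adjusted p = 5.52e-07) and 0.39 (SE 0.062, adjusted p = 5.47e-07), with OE and KD not passing the test against each other (adjusted p = 0.52). Slc1a4, which exchanges serine and alanine, rose by 0.39 in KD (adjusted p = 0.000167) and 0.23 in OE (adjusted p = 0.00895), with means of 25, 32.8 and 29.3 CPM. The glutamine carriers Slc38a1 and Slc38a2 rose in OE against WT, by 0.37 (adjusted p = 5.2e-07; means 145, 153 and 187 CPM) and 0.27 (adjusted p = 0.000747; means 360.0, 402 and 434 CPM). Slc38a1 was also higher in OE than in KD, by 0.29 (adjusted p = 7.03e-06), and it passed in KD against WT without WT replicate 2 (adjusted p = 0.0449). In KD the rise of 0.16 in Slc38a2 passed narrowly (adjusted p = 0.049), and it was lost without any 1 of 8 of the 9 libraries (adjusted p from 0.0641 to 0.266). Slc1a5, another glutamine carrier, had means of 54.0, 49.6 and 52.6 CPM and passed no comparison (adjusted p between 0.0812 and 0.59), though in KD it passed with upper-quartile scaling (0.027). The arginine carrier Slc7a3 was counted 10, 10 and 0 times in WT, 23, 12 and 20 in KD and 10, 15 and 8 in OE, and passed none either, except in KD under limma-voom (adjusted p = 0.0446).

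Vldlr and Stc2 code for proteins outside amino acid metabolism that are induced through ATF4 in stressed cells. Vldlr, the very-low-density lipoprotein receptor, read 6.88, 6.0 and 6.19 CPM in WT, 6.51, 5.87 and 6.49 in KD, and 16.7, 17.7 and 16.7 in OE. WT and KD overlapped, and every OE library was above both. Vldlr rose by 1.43 in OE, or 2.69-fold (SE 0.065, adjusted p = 1.8e-10), with an adjusted p of 0.972 in KD against WT. Stc2, stanniocalcin 2, a secreted glycoprotein, read 2.03, 1.44 and 1.74 CPM in WT, 0.774, 0.678 and 0.594 in KD, and 1.64, 1.72 and 1.93 in OE. Here KD stood apart, below both other groups. Stc2 fell by 1.34 in KD (SE 0.173, adjusted p = 0.00036), did not pass in OE against WT (adjusted p = 0.941) and was higher in OE than in KD by 1.36 (SE 0.125, adjusted p = 9.05e-05).

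Charging of tRNA is another step that ATF4 feeds, and of 20 cytosolic tRNA synthetase genes many rose in OE: 17 rose and 0 fell, with a median log2 fold change of 0.24, where 16.9% of all genes rose and 28.4% of those at 50 CPM or more. Yars, the tyrosine enzyme, had the smallest p, going from 149.8 ± 2.42 to 234 ± 6.0 CPM (0.64, SE 0.025, adjusted p = 7.17e-11). However, Yars lies in a window with a shifted median on chromosome 4 and kept 0.30 with that median removed. Gars and Cars, for glycine and cysteine, each rose by 0.39 in OE (adjusted p = 4.51e-08 and 1.53e-07). In KD 6 rose and 1 fell (median 0.086), or 4 calls in all without KD replicate 3. Of all genes 11% rose and 10.4% fell in KD, and of those at 50 CPM or more 24.1% rose and 12.2% fell. The 6 synthetase rises were led by 0.25 in Wars (adjusted p = 0.00062) and 0.19 in Nars (adjusted p = 0.000706). Aars, the alanine enzyme, fell by 0.23 in KD (adjusted p = 0.000159) and rose by 0.34 in OE (adjusted p = 5.61e-07), with means of 524, 447 and 661 CPM. Between OE and KD, 13 were higher in OE and 0 lower (median 0.12). Of all genes 19.4% were higher there, and of those at 50 CPM or more 26.6%. The count of synthetases called was 7 without KD replicate 1 and 8 without KD replicate 2 or OE replicate 1.

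Other genes of the integrated stress response, 20 in all, gave 14 rises and 0 falls in OE (median 0.30), where 16.9% of all genes rose and 19.5% fell. In KD they gave 7 rises and 2 falls, where 11% of all genes rose and 10.4% fell. Their KD median was 0.025, which became -0.02 when library totals without ribosomal RNA set the scale. Sesn2, a leucine sensor that restrains mTORC1, rose by 0.84 in OE (SE 0.039, adjusted p = 4.68e-10), with means of 24.5, 20.7 and 43.9 CPM in WT, KD and OE, and kept 0.50 with its window median removed. In KD against WT the change of Sesn2 was -0.25 (adjusted p = 0.00569), and -0.07 with the window median removed. The cystine carrier Slc7a11 rose by 0.31 in KD (adjusted p = 0.00063) and by 0.61 in OE (adjusted p = 4.95e-08), with means of 29.2, 36.2 and 44.6 CPM. The stress hormone Fgf21 rose by 1.42 in OE (SE 0.162, adjusted p = 1.01e-06), from 2.16 ± 0.188 to 5.82 ± 0.971 CPM. In KD, the cell cycle inhibitor Cdkn1a fell by 0.59 (adjusted p = 9.97e-05) and Eif2ak3, the kinase PERK that phosphorylates eIF2 under endoplasmic reticulum stress, rose by 0.29 (adjusted p = 0.000736).

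The endoplasmic reticulum chaperones and other genes of the unfolded protein response had the reverse order. Of these 20 genes, 18 rose and 0 fell in KD (median 0.66), where 11% of all genes rose. In OE 11 rose and 3 fell (median 0.18), where 16.9% rose and 19.5% fell. Against KD, 0 were higher and 18 lower in OE (median -0.30), where 22.1% of all genes were lower. Hspa5, the chaperone BiP, rose from 1257 ± 43.7 CPM in WT to 2201 ± 85.0 in KD (0.81, SE 0.044, adjusted p = 5.53e-12) and 1792 ± 21.7 in OE (0.51, SE 0.031, adjusted p = 1.47e-09). Herpud1, which serves the degradation of misfolded proteins, rose by 0.83 in KD (adjusted p = 1.69e-11) and 0.47 in OE (adjusted p = 2.2e-08). The chaperone Calr rose by 0.64 in KD (adjusted p = 1.23e-10) and by 0.42 in OE (adjusted p = 1.5e-08). Hyou1, another chaperone, rose by 0.73 in KD (adjusted p = 3.44e-11) and fell by 0.17 in OE (adjusted p = 0.00227). Its window median was also shifted in OE, and with that median removed the OE change of Hyou1 was 0.24.

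**Figure D4:**
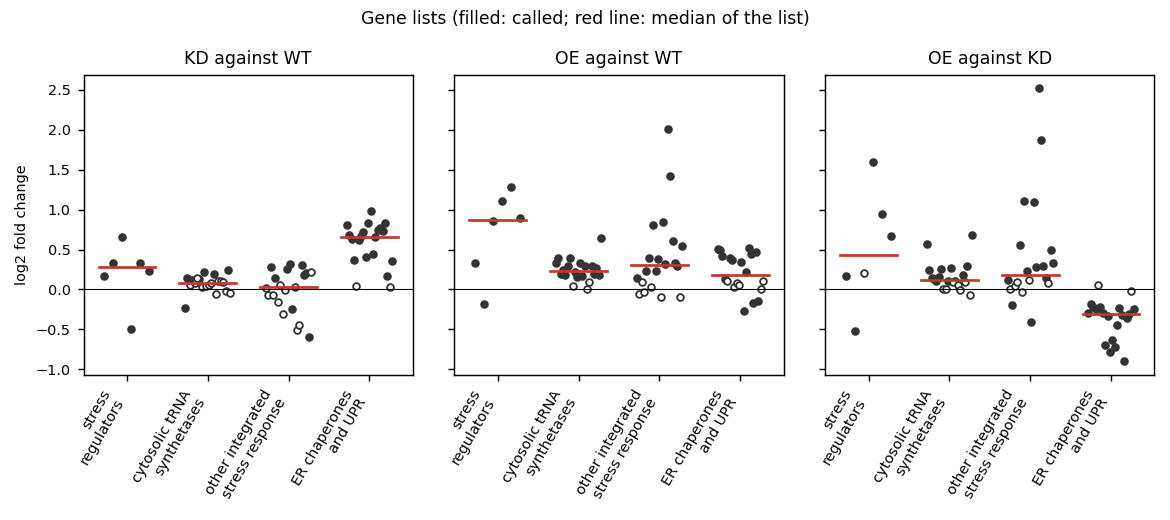
Log2 fold changes of single genes, as points, and their median, as a line, (filled where called) for the stress regulators, cytosolic tRNA synthetases, other integrated stress response genes, and endoplasmic reticulum chaperones and unfolded protein response genes in the 3 comparisons. The chaperone list has its highest median (0.66) in KD against WT and its lowest in OE against KD (-0.30), where the stress regulators have a median of 0.44.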

How the data were processed

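RNA from 9 MCEC libraries (3 WT, 3 KD, 3 OE) was enriched for poly-A RNA and sequenced as paired reads after random-hexamer priming, per the labels' protocols. The authors deposited whole-number counts per Ensembl gene, not normalised, judged from the values; GRCm38 and mm10 are named per the submitters' processing notes. The aligner, counting program, use of strand and annotation release are not given in the sources used here. Of 55774 rows, 287 that repeated one of 168 genes were dropped. Positions came from GENCODE on GRCm38. Total counts of 39491828 to 55745849 per library set the precision, and intervals on ratios cover counting error only.

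In R 4.3.3, edgeR 4.0.16 kept 16955 genes with filterByExpr, scaled them by TMM and fitted 1 robust quasi-likelihood model by group. CPM uses the TMM library sizes. SEs come from log2 CPM with a prior count of 2. An exact permutation test of 3 against 3 libraries cannot go below 0.1, so none is given. Genes given library by library are those called with a log2 fold change of at least 0.5 in size against WT, plus Atf4, Atf5 and Slc7a5, chosen after their values were seen; in each pathway list they are the 3 with the smallest p in KD and in OE against WT. The members and the lists were chosen with earlier results of these data known. On simulated counts the test returned changes of known size, but the share of false calls was above the threshold in most draws, so calls close to it are less certain than their adjusted p. Alternatives used DESeq2 1.42.0 and limma 3.58.1, other scalings, filters and subsets; window medians were taken over 20 Mb with at least 10 genes. Tables and figures were made with Python 3.11.15, pandas 2.3.3, numpy 2.4.6, scipy 1.17.1 and matplotlib 3.10.9.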

Additional observations from a re-analysis of the deposited data

How the results depend on the processing

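Of the listed genes, 22 were called in KD against WT, 29 in the OE contrast with WT and 27 between OE and KD; leaving out single libraries left 17 to 25, 28 to 30 and 25 to 30. With library totals alone as the scale, 14 were called in KD (10 higher, 4 lower), and with a minimum fold change of 1.5, 3 in KD, 9 in OE and 8 in OE against KD. Small KD changes were the least stable: with library totals alone, Atf4 (adjusted p = 0.136), Phgdh (0.0968), Mthfd2 (0.065), Bcat1 (0.244) and Bcat2 (0.0879) did not pass. Chac1 (0.114), Slc3a2 (0.364) and Slc38a2 (0.361) did not either. On that scale 26 were called in OE against WT, without Mthfd1l (0.0903), Pycr1 (0.124) and Slc1a4 (0.127). Between OE and KD 21 were called, without Atf4 (0.0552), Psat1 (0.0697), Shmt1 (0.0516), Shmt2 (0.153), Mthfd1l (0.0576) and Got1 (0.176). Removing 20 Mb window medians turned Slc7a5 to 0.14 and Hyou1 to 0.24 in OE against WT.

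For tRNA synthetases, library totals alone gave 2 calls in KD, 10 in OE and 7 between OE and KD, library totals without ribosomal RNA gave 4 in KD, and testing every gene with at least 1 count gave 7 in OE against KD; leaving out single libraries gave 4 to 9, 17 to 17 and 7 to 15. With a minimum fold change of 1.5 the calls in those 3 comparisons were 0, 0 and 1 for synthetases, 0, 3 and 4 for other stress response genes, and 6, 0 and 3 for chaperones, and over all genes 274, 794 and 1332, against 3621, 6174 and 7030. Across scalings the share of all calls that were higher went from 51.4% to 35.8% (library totals), 36.6% (totals without ribosomal RNA) and 42.7% (upper quartile) in KD, from 46.5% to 31.6% (library totals) and 54.3% (upper quartile) in OE, and from 46.8% to 57.6% (upper quartile) and 56.9% (totals without ribosomal RNA) in OE against KD. With the minimum fold it was 25.9% in KD and 33.1% in OE. The cause of these shifts was not tested.

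Replicate numbers did not pair the libraries: same-numbered libraries correlated between -0.042 and 0.049 in their deviations from group means. With the replicate number as a block, 22, 29 and 27 listed genes were called, and 3575, 6111 and 6970 genes in all. Depth limits Cth, Cbs, Slc7a3, Gfpt2 and Glul, which have few or no counts in at least 1 group.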
